A study of Mus musculus with 24 samples.

Results

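RNA polymerases I, II and III are the 3 nuclear enzymes that copy DNA into RNA, and the genes described here are their subunits together with the basal factors of RNA polymerase I (Pol I). They were taken as every gene symbol beginning with Polr1, Polr2 or Polr3 in the platform annotation, plus Taf1a, Taf1b, Taf1c, Taf1d, Ubtf and Rrn3, without symbols ending in -ps. This gave 33 of the 19938 genes measured by a probe set with a single symbol. By known assembly, 3 encode subunits of Pol I alone, 2 of Pol I and III, 5 of all 3 polymerases, 8 of Pol II alone, 9 of Pol III alone and 6 the Pol I factors. Cd3eap, Twistnb and Znrd1 also encode Pol I subunits but carry older symbols that the rule does not reach, so their values are given beside the 33 and are not counted among them.

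Pol I copies the ribosomal RNA genes, Pol II the protein-coding genes, and Pol III the transfer RNA genes, the 5S ribosomal RNA genes and other small RNA genes. The enzymes share a core design: each has a largest and a second-largest subunit that form the active site, and some small subunits are common to all of them. In fibroblasts, as in other cells, Pol I and Pol III output is known to follow the demand for ribosomes and growth.

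NIH3T3, a mouse embryonic fibroblast line, was treated with 1 mM DFMO for 96 h and then given 10 µM spermidine. DFMO (difluoromethylornithine) blocks ornithine decarboxylase and so depletes polyamines, and spermidine is a polyamine that restores them. RNA was collected before spermidine (0 min), early after it (30, 60 and 120 min), at 240 min, and late (360, 480 and 600 min), with 3 biological replicates for each of the 8 times and 24 arrays in all. All groups had received DFMO, the 0 min group was collected without spermidine, and spermidine was given in the presence of 1 mM aminoguanidine, which blocks polyamine oxidation. Aminoguanidine treatment of the 0 min group is not stated. The series holds no cells that were never given DFMO and no cells kept in DFMO for the same extra time, so time in culture and spermidine cannot be told apart. The labels call the replicates biological without saying whether they are separate cultures, so p-values measure the spread between these samples.

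Array values are on the log2 scale, on which a difference of 1 is a doubling, and they are set against other genes on the same array. Levels of different genes depend on their probe sets and are not compared. The array medians lay between 4.33 and 4.37. The 8 fibroblast markers examined had mean values of 6.04 to 12.72, and 16 of the 17 markers of macrophages, epithelium, muscle and adipocytes had means of 3.63 to 4.60, the exception being Lyz2 at 7.40. Replicate 3 of 120 min and replicate 3 of 240 min stood apart from their groups: on the leading principal component, which held 63.1% of the variance, replicate 3 of 120 min lay at 2.61 and its partners at -12.18 and -12.23, whereas replicate 3 of 240 min lay at -13.23 and its partners at 2.07 and 1.49. Each of these arrays lay near the partners of the other one, so results at 120 and 240 min are also given without both. Tests used limma over all 24 arrays, with p-values adjusted over the 19938 genes by the Benjamini-Hochberg method and a threshold of 0.05 on the adjusted p for a call. An effect of replicate number had been removed from the values before deposit, and a fit with replicate number as a block accounts for the degrees of freedom that this used. Its adjusted p is given beside the calls of described genes that it loses.

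The upstream sequences of 4 members on which the results turn are shown here: Polr3b, which fell most, Polr3g and Polr3gl, the interchangeable pair whose members moved in opposite directions, and Polr2a, whose value was higher at late times. Each sequence holds the 250 bases before an annotated transcription start in RefSeq, build GRCm38.p6, read 5′ to 3′ on the gene's strand. Polr3b lies on the plus strand (chr10:84622048-84622297), and the others lie on the minus strand: Polr3g (chr13:81711014-81711263), Polr3gl (chr3:96594182-96594431) and Polr2a (chr11:69758634-69758883). Capitals mark 4 motifs searched on both strands: CACGTG (the E-box read by Myc and USF proteins), CCAAT (read by NF-Y), GGGCGG (the GC box read by Sp proteins) and CCGGAAG (read by Ets proteins). A match on the other strand appears as its reverse complement.
Polr3b: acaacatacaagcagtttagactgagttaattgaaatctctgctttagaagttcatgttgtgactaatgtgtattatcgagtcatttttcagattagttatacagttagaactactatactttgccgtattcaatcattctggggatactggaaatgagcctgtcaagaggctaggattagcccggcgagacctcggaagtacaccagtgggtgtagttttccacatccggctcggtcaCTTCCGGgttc
Polr3g: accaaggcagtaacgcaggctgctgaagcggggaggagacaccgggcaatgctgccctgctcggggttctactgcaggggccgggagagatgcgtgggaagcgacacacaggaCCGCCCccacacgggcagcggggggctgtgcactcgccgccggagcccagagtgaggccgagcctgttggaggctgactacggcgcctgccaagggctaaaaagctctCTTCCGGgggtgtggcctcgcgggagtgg
Polr3gl: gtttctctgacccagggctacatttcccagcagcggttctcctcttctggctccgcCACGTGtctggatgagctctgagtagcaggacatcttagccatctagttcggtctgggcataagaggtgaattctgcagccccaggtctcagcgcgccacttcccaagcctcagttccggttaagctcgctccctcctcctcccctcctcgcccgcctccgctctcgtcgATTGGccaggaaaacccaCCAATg
Polr2a: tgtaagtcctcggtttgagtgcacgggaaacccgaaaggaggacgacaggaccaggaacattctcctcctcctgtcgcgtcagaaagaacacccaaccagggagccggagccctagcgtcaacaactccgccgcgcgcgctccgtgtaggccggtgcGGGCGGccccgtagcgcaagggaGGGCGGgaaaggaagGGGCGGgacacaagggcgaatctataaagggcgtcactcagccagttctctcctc

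Polr3b held CCGGAAG once, 11 bases before the start site that its window was taken from. The annotated gene begins slightly earlier, at base 84622292, inside the window, and the motif overlaps that position. Polr3g held CCGGAAG once, 29 bases before it, and GGGCGG once, 137 bases before it. Polr3gl held neither motif, and it held CACGTG once (194 bases) and CCAAT in 2 places (24 and 6 bases). Polr2a held GGGCGG in 3 places (93, 70 and 55 bases). None of these matches overlapped another. Promoter entries were matched for 28 of the 33 genes (37 promoters, since some genes have several starts), and Polr2d, Polr2g, Polr2k, Polr3a and Polr3d had no match. Over the 37 promoters, GGGCGG was present in 59.5%, against 33.0% of all 32536 promoters of the table and 43.1% of the 20988 promoters of protein-coding genes. CCGGAAG was present in 21.6%, against 6.9% of all promoters and 9.1% of those of protein-coding genes. CCAAT was present in 32.4%, against 33.8% and 35.3%, and CACGTG in 8.1%, against 6.0% and 6.7%. The 3 genes with CACGTG were Polr3c, Polr3gl and Rrn3. These shares describe letters in the windows and were not tested.

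At 600 min the polymerase genes were on the whole lower than at 0 min. Of the 33 genes, 17 fell, 1 rose and 15 did not pass the test, while over all 19938 genes 15.7% fell and 11.2% rose. The median difference over the 33 was -0.23 on the log2 scale, with 28 of 33 differences below 0, and that over all genes was 0.01. All 33 lie among the 9969 genes above the median expression level, whose median was -0.05. In a fit of those genes alone, 32.2% of them were lower and 20.6% higher, and of the 33 members 18 were lower and 1 higher. The genes that fell included those for the active-site subunits of Pol III and Pol I (Polr3b, Polr3a, Polr1b and Polr1a), a stalk subunit of Pol II (Polr2g) and subunits that several enzymes share (Polr1c, Polr1d, Polr2e, Polr2h and Polr2l).

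**Figure D1:**
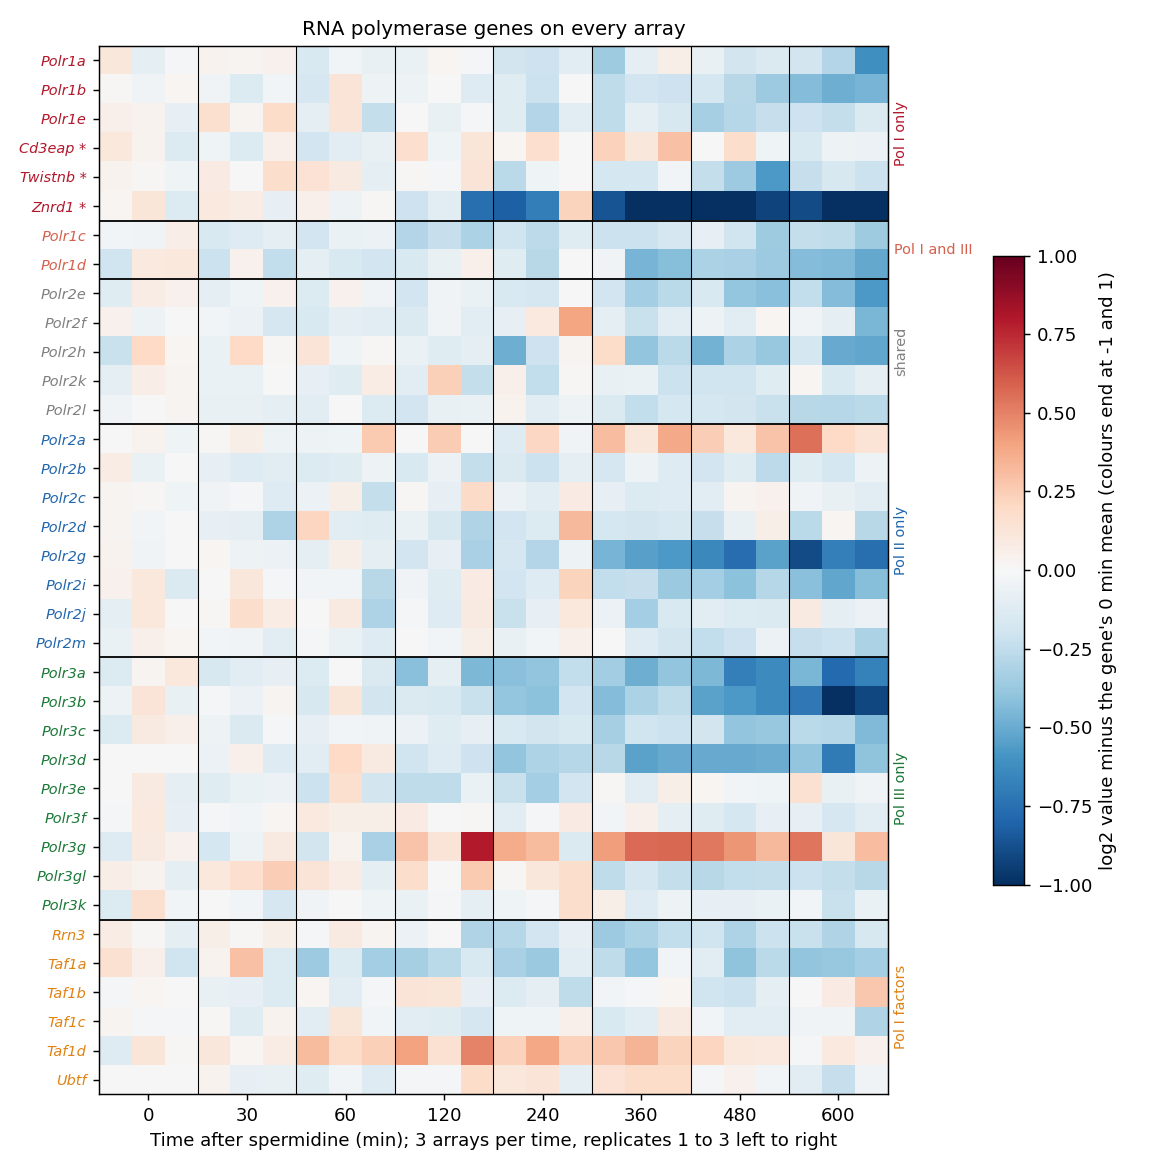
Log2 value of each gene on each of the 24 arrays minus that gene's mean at 0 min, with genes in rows by class (asterisks mark the 3 Pol I genes under older symbols) and arrays in columns by time after spermidine in min. Most rows turn blue from 360 min on, Polr2a and Polr3g turn red, and Znrd1 shows the arrays at 120 and 240 min that stood apart from their groups.

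The change built up over time. No member was called in either direction at 30 or 60 min by limma, where 0.015% and 0.01% of all genes were called higher and 0% and 0.015% lower, and at an unadjusted p under 0.05 there was 1 member higher and 1 lower at each of these times. At 120 min Taf1d was called higher and Polr1c lower, against 0.0451% and 0.426% of all genes. At 240 min Taf1d was called higher and Polr3a and Polr3d lower, against 0.366% and 2.69% of all genes. At 360 min 2 members rose and 13 fell, where 8.47% of all genes rose and 10.5% fell. Leaving out any single array of 0 or 360 min gave 8 to 10 falls, with 8 when replicate 2 of 0 min or replicate 1 of 360 min was dropped, and 0 to 2 rises. At 480 min 1 rose and 17 fell, against 9.73% and 14.5% of all genes. In the fit of genes above the median level, 22% were lower and 17.6% higher at 360 min, with 13 and 3 of the members. At 480 min that fit had 29.8% lower and 18.8% higher, with 18 and 1 of the members.

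The median difference of the 33 genes from 0 min was -0.04 at 30 min, -0.07 at 60 min, -0.06 at 120 min, -0.11 at 240 min, -0.17 at 360 min, -0.19 at 480 min and -0.23 at 600 min. These comparisons share the 0 min arrays. A comparison that does not use those arrays set the 9 late arrays (360, 480 and 600 min) against the 9 early ones (30, 60 and 120 min). In it 17 members were lower and 2 higher, against 19.4% and 16.4% of all genes. In the fit of genes above the median level, 37.8% were lower and 28.3% higher, with 17 and 3 of the members. The F-test over the 8 times called 22 of the 33, against 30.9% of all genes.

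The replicate block left the counts of falls at the late times much as they were and took away the calls at 120 and 240 min. With it, 0 members were higher and 16 lower at 600 min, where 9.84% and 14.4% of all genes were called. At 480 min they were 0 and 16, against 8.48% and 13.3%, and at 360 min 2 and 11, against 7.28% and 9.1%. At 240 min they were 0 and 0, against 0.15% and 1.64%, and at 120 min 0 and 0, against 0.00502% and 0.196%. At 60 min they were 0 and 0, against 0.00502% in either direction, and at 30 min 0 and 0, against 0%. Between late and early arrays they were 2 and 17, against 14.9% and 18.4%, and between 600 and 360 min 0 and 2, against 1.82% and 2.32%. The F-test with the block called 19 members, against 26.8% of all genes.

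Without the 2 arrays that stood apart, the calls at 120 min were lost and 7 members rather than 2 were lower at 240 min, Polr1c, Polr2b, Polr2g, Polr3b and Rrn3 being added, while the share of all genes lower at 240 min was 5.87% in that fit.

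**Figure D2:**
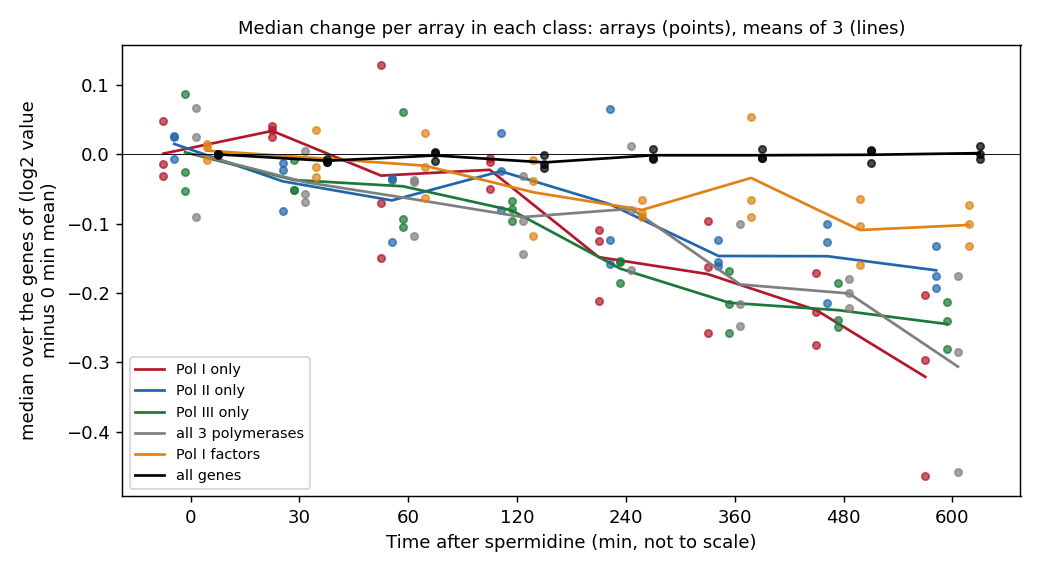
For each array, the median over the genes of a class of the log2 value minus the gene's 0 min mean (points), with the mean of the 3 arrays of a time (lines), plotted against time after spermidine in min. The line of all genes stays near 0, the lines of the Pol I, Pol III and shared subunits fall below -0.2 by 600 min, and those of the Pol II subunits and Pol I factors stay nearer to 0.

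By enzyme, the 3 subunits of Pol I alone had a median difference of -0.36 at 600 min, with 2 lower, and the 2 subunits of Pol I and III both fell, with a median of -0.37. Of the 5 subunits common to all 3 enzymes, 3 fell, with a median of -0.28. Of the 9 subunits of Pol III alone 5 fell and none was called higher (1 had an unadjusted p under 0.05 for a rise), with a median of -0.25. Of the 8 subunits of Pol II alone 3 fell and 1 rose, with a median of -0.15. Counting shared subunits with each enzyme they belong to, 7 of 10 Pol I, 10 of 16 Pol III and 6 of 13 Pol II genes fell, against 15.7% of all genes and 32.2% of those above the median level. The Pol I sets leave out Znrd1, Twistnb and Cd3eap, of which only Znrd1 was called lower at 600 min. Counting these genes would reduce the share of Pol I genes that fell. The differences between the enzymes were not tested, and the sets share members.

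**Figure D3:**
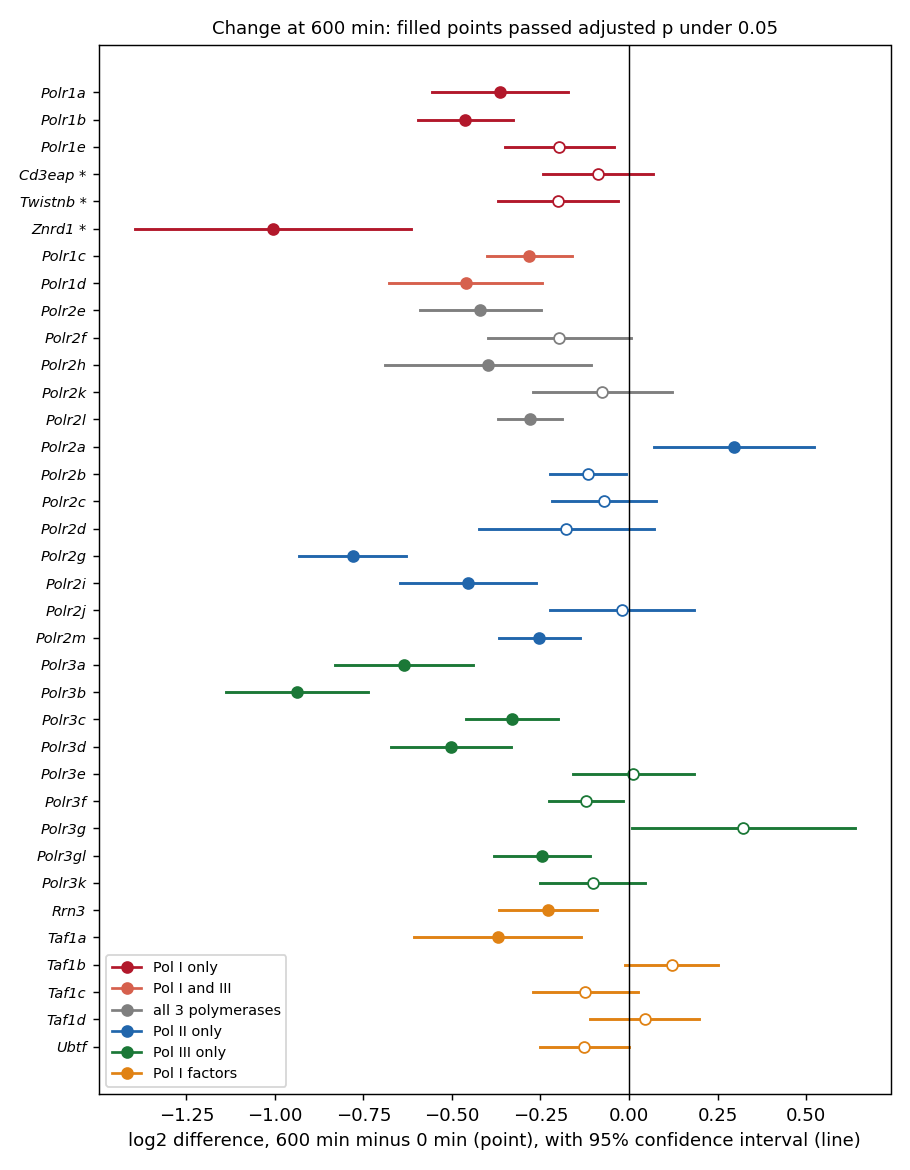
Log2 difference between 600 and 0 min for each gene (point) with its 95% confidence interval (line), coloured by class, filled where the adjusted p was under 0.05 and with asterisks on the 3 genes under older symbols. Polr3b, Polr2g and Polr3a lie farthest below 0 among the members, and Polr2a is the filled point above 0.

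Among the largest subunits, which carry the catalytic magnesium, the 3 enzymes gave different values. Polr1a, of Pol I, had values of 8.04, 7.93 and 7.62 at 600 min, against 8.34, 8.13 and 8.21 at 0 min, so the groups did not overlap. It fell by 0.36 on the log2 scale (SE 0.092, limma adjusted p = 0.00479), and it was not called at 360 min (-0.13, adjusted p = 0.41) or 480 min (-0.13, adjusted p = 0.369).

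Polr3a, of Pol III, had values of 7.14, 6.82 and 6.92 at 600 min, against 7.46, 7.63 and 7.71 at 0 min, again without overlap. The difference was -0.64 (SE 0.093, adjusted p = 2.39e-05), a 1.55-fold lower level. In between it read 7.44, 7.49 and 7.52 at 30 min, 7.46, 7.60 and 7.46 at 60 min, 7.18, 7.50 and 7.15 at 120 min, 7.18, 7.21 and 7.35 at 240 min, 7.25, 7.11 and 7.20 at 360 min, while at 480 min it read 7.15, 6.91 and 6.96. Every array from 240 min on lay below every array at 0 min. The fall was already called at 240 min (-0.35, adjusted p = 0.0427, and 0.0809 with the replicate block).

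Polr2a, the largest Pol II subunit with the C-terminal repeat tail, had values of 8.13, 7.78 and 7.72 at 600 min, against 7.58, 7.62 and 7.54 at 0 min. All arrays at 600 min lay above those at 0 min, with replicate 1 well above its partners. The rise of 0.30 (SE 0.108, adjusted p = 0.0475) was the only rise called among the 33 genes at 600 min, and it was lost with the replicate block (adjusted p = 0.07), without both arrays that stood apart (0.0519), without replicate 1, 2 or 3 of 0 min (0.0961, 0.078 and 0.126) or without replicate 1 of 600 min (0.17, adjusted p = 0.274). In the 9 late arrays Polr2a ranged from 7.68 through a median of 7.83 to 8.13, against 7.52 through 7.58 to 7.84 in the 9 early ones, so the ranges overlapped. That difference was 0.21 (SE 0.062, adjusted p = 0.0111, and 0.0186 with the replicate block).

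The second-largest subunits complete the active site. Polr3b, of Pol III, had the largest fall of the 33 genes. Its values were 6.63, 6.15 and 6.43 at 600 min, against 7.29, 7.47 and 7.26 at 0 min, with a wide gap between the groups. In between it read 7.33, 7.28 and 7.37 at 30 min, 7.18, 7.46 and 7.16 at 60 min, 7.20, 7.19 and 7.12 at 120 min, 6.95, 6.93 and 7.15 at 240 min, 6.91, 7.03 and 7.09 at 360 min, while at 480 min it read 6.81, 6.77 and 6.71. The values at 480 min lay below every earlier array, and those at 600 min below every array at 480 min.

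Polr3b was 1.92-fold lower at 600 min (difference -0.94, SE 0.096, adjusted p = 3.58e-07), and it was lower at 600 than at 360 min (-0.60, adjusted p = 0.000598). Its CCGGAAG next to the start site is shown in the sequence above. In all, 4 members were lower at 600 than at 360 min (Polr3b, Polr1b, Polr2g and Ubtf), against 3.43% of all genes. None was higher (also none at an unadjusted p under 0.05, by limma), against 2.54% of all genes. Of the genes above the median level, fitted alone, 7.85% were lower and 5.26% higher. The call of Polr1b was lost with the replicate block (0.054) and without any single array of these times except replicate 1 of 600 min (0.053 to 0.107), and that of Polr2g with the block (0.0752) and without any except replicate 2 of 600 min (0.0672 to 0.16).

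Polr1b, of Pol I, had values of 8.01, 7.94 and 7.97 at 600 min, against 8.45, 8.40 and 8.46 at 0 min. These groups were tight and separate, and the difference was -0.46 (SE 0.065, adjusted p = 1.47e-05). Polr2b, of Pol II, had values of 9.80, 9.75 and 9.87 at 600 min, against 9.99, 9.86 and 9.91 at 0 min, and the groups overlapped. Its difference of -0.12 (95% interval -0.22 to -0.01, adjusted p = 0.112) did not pass the test at 600 min, although it did at 480 min (-0.19, adjusted p = 0.00831), a call lost when replicate 1 of 0 min (0.0566) or replicate 3 of 480 min (0.0534) was left out.

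**Figure D4:**
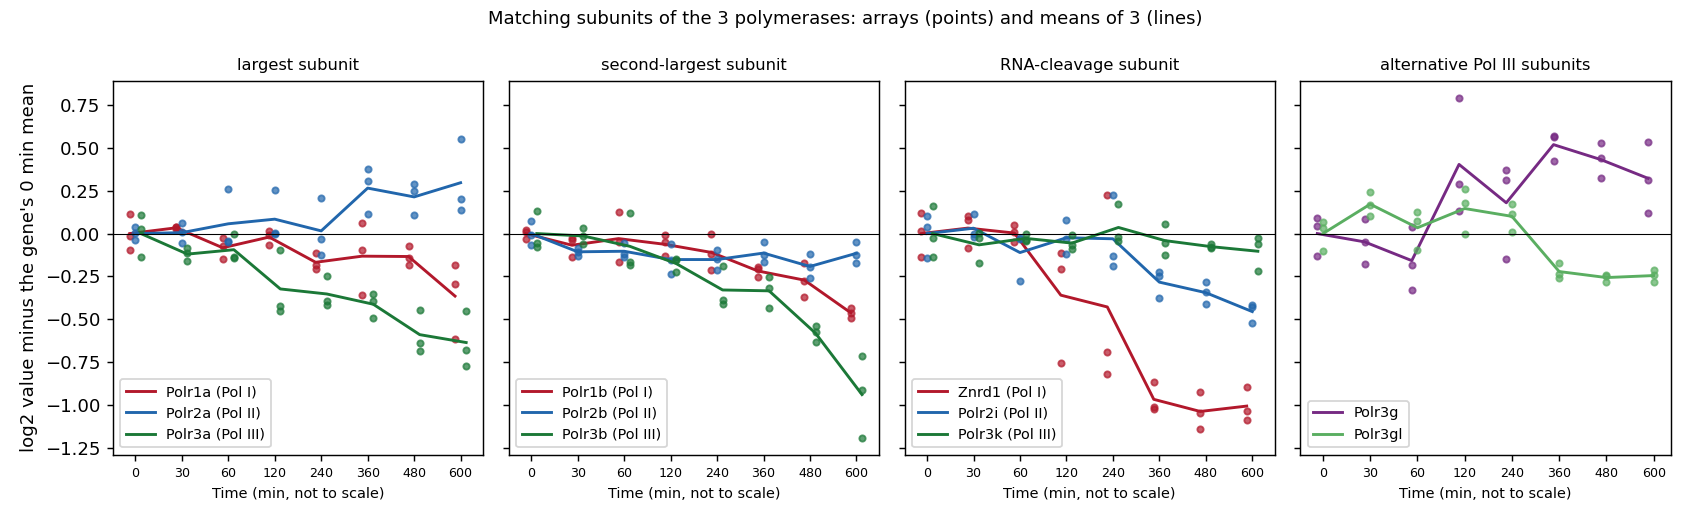
Log2 value minus the gene's 0 min mean on each array (points), with the means of 3 arrays (lines), against time after spermidine in min, for the largest, the second-largest and the RNA-cleavage subunits of the 3 enzymes and for the alternative Pol III subunits Polr3g and Polr3gl. At 600 min Polr3a and Polr3b lie lowest among the largest and second-largest subunits, Znrd1 lies lowest among the cleavage subunits, and Polr3g lies above Polr3gl.

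Subunits that help the enzymes cleave and release RNA also have counterparts in each polymerase. Polr2i, of Pol II, had values of 4.71, 4.61 and 4.70 at 600 min, against 5.17, 5.23 and 4.98 at 0 min, and it fell by 0.45 (SE 0.092, adjusted p = 0.000708). Polr3k, of Pol III, had values of 7.06, 6.86 and 7.02 at 600 min, against 6.95, 7.25 and 7.06 at 0 min, which overlapped (difference -0.10, 95% interval -0.25 to 0.05, adjusted p = 0.349). Polr2i is dim on these arrays, above only 57.5% of the genes.

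Znrd1, the Pol I counterpart and not one of the 33, had values of 6.10, 5.96 and 5.91 at 600 min, against 7.01, 7.12 and 6.86 at 0 min (2.01-fold lower, SE 0.186 on the log2 scale, adjusted p = 0.000305). At 120 min it read 6.78, 6.88 and 6.24 and at 240 min 6.18, 6.30 and 7.22, so the arrays that stood apart had the extreme values of their groups. Its difference at 240 min was -0.43 (adjusted p = 0.261) and, without these arrays, -0.75 (adjusted p = 1.3e-05). The other Pol I genes under older symbols did not pass the test at 600 min. Twistnb, the stalk subunit, had a difference of -0.20 (adjusted p = 0.0793), and Cd3eap, the partner of Polr1e, one of -0.09 (adjusted p = 0.468). Twistnb was however called lower at 480 min, with a mean of 6.21 against 6.60 at 0 min (limma adjusted p = 0.00111). Its late arrays were also lower than its early ones (adjusted p = 2.88e-05), although the ranges overlapped.

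Of the remaining Pol I subunit genes, Polr1e had values of 6.22, 6.18 and 6.28 at 600 min, against 6.47, 6.46 and 6.34 at 0 min. The groups did not overlap, but its difference of -0.20 missed the threshold (adjusted p = 0.0531). It had fallen at 480 min, by 0.28 (adjusted p = 0.00678).

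Polr1c and Polr1d form a heterodimer that nucleates assembly of both Pol I and Pol III. Polr1c had values of 9.24, 9.23 and 9.12 at 600 min, against 9.45, 9.44 and 9.55 at 0 min, without overlap, and it fell by 0.28 (SE 0.058, adjusted p = 0.000788). At 120 min it read 9.19, 9.25 and 9.16 and was called lower (-0.28, adjusted p = 0.0351), a call that was lost with the replicate block (0.0888), without the 2 arrays that stood apart (0.12) and without any single array of these times except replicate 2 of 120 min (0.0582 to 0.171). Between the late and early arrays Polr1c differed by only -0.06 (adjusted p = 0.166).

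Polr1d had values of 8.44, 8.43 and 8.36 at 600 min, against 8.67, 8.97 and 8.98 at 0 min. It fell by 0.46 (SE 0.103, adjusted p = 0.00166). It has another, dimmer probe set, on which the difference was -0.15 (adjusted p = 0.487 over the 21789 probe sets with 1 symbol). Between late and early arrays both probe sets were lower, the dimmer by 0.22 (adjusted p = 0.023) and the brighter by 0.26 (adjusted p = 0.00165, both over the probe sets).

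Among the small subunits common to all 3 enzymes, Polr2e fell by 0.42 (SE 0.082, adjusted p = 0.000497), with values of 8.01, 7.82 and 7.69 at 600 min, against 8.14, 8.33 and 8.31 at 0 min. Polr2l fell by 0.28 (SE 0.043, adjusted p = 4.83e-05), with values of 10.31, 10.30 and 10.32 at 600 min, against 10.55, 10.59 and 10.61 at 0 min. Both had separate groups, and the other probe set of Polr2l also fell, by 0.31 (adjusted p = 3.58e-05 over the probe sets).

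Polr2h had values of 7.78, 7.46 and 7.44 at 600 min, against 7.74, 8.16 and 7.98 at 0 min, which overlapped. Its fall of 0.40 (SE 0.139, adjusted p = 0.0381) was lost with the replicate block (0.0574) and when any of replicates 2 and 3 of either time was left out (0.0912 to 0.191), and its other probe set gave -0.09 (adjusted p = 0.645 over the probe sets). Polr2f did not pass the test (-0.20, adjusted p = 0.16). Polr2k did not either (-0.08, adjusted p = 0.655), but its probe set was dim, with a mean of 4.77 over the 24 arrays. A brighter probe set is annotated to both Polr2k and LOC100862456 and was not used, since only probe sets with a single symbol were. It read 7.92, 7.87 and 7.74 at 600 min, against 8.22, 8.74 and 8.39 at 0 min. These groups did not overlap, and the difference was not tested.

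The stalk of Pol II is a dimer of Polr2d and Polr2g that contacts the emerging RNA. Polr2g had values of 9.21, 9.42 and 9.35 at 600 min, against 10.14, 10.07 and 10.10 at 0 min, and of 9.64, 9.56 and 9.53 at 360 min, while at 480 min it read 9.46, 9.34 and 9.57. Every array from 360 min on lay below every earlier array. The difference at 600 min was -0.78 (SE 0.072, adjusted p = 1.02e-07), a 1.72-fold lower level. Polr2d had values of 7.38, 7.66 and 7.36 at 600 min, against 7.67, 7.62 and 7.65 at 0 min, which overlapped, and its difference of -0.18 (95% interval -0.42 to 0.07) was not called (adjusted p = 0.324).

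Polr2m, a protein that associates with Pol II and competes with the initiation factor TFIIF, fell by 0.25 (SE 0.055, adjusted p = 0.00129). Its values were 9.43, 9.44 and 9.34 at 600 min, against 9.59, 9.70 and 9.67 at 0 min, without overlap. Polr2c and Polr2j, the pair of Pol II that corresponds to Polr1c and Polr1d, had differences of -0.07 (adjusted p = 0.552) and -0.02 (adjusted p = 0.926), with overlapping groups.

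Pol III carries a subcomplex for initiation (Polr3c, Polr3f and either Polr3g or Polr3gl) and another for termination and reinitiation (Polr3d and Polr3e). Polr3d had values of 5.70, 5.39 and 5.70 at 600 min, against 6.10, 6.10 and 6.09 at 0 min, a fall of 0.50 (SE 0.081, adjusted p = 7e-05). At 240 min it read 5.70, 5.78 and 5.81, below all arrays at 0 min, and was called lower (-0.33, adjusted p = 0.0289, and 0.059 with the replicate block). Leaving out both arrays that stood apart kept the calls of Polr3a and Polr3d at 240 min (adjusted p = 0.0137 and 0.0219), while both were lost with replicate 2 or 3 of the 0 min arrays left out, or replicate 1 or 2 of the 240 min arrays (0.0697 to 0.181), and that of Polr3d with replicate 1 of 0 min left out (0.102).

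Polr3e, the partner of Polr3d, had values of 6.24, 6.01 and 6.06 at 600 min, against 6.09, 6.18 and 6.00 at 0 min, with overlapping groups and a difference of 0.01 (95% interval -0.16 to 0.18, adjusted p = 0.944). Polr3c had values of 8.34, 8.32 and 8.16 at 600 min, against 8.47, 8.69 and 8.65 at 0 min, and it fell by 0.33 (SE 0.062, adjusted p = 0.000331). Polr3f had a difference of -0.12 (adjusted p = 0.0869), and its late arrays were lower than its early ones by 0.12 (adjusted p = 0.00224).

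Polr3g and Polr3gl encode alternative forms of the same subunit, the Polr3g form being known from pluripotent and transformed cells and the Polr3gl form from most differentiated tissues. Polr3g read 5.74, 5.96 and 5.91 at 0 min, 5.69, 5.82 and 5.96 at 30 min, 5.69, 5.91 and 5.54 at 60 min, 6.16, 6.00 and 6.66 at 120 min, 6.24, 6.18 and 5.72 at 240 min, 6.29, 6.43 and 6.44 at 360 min, 6.40, 6.31 and 6.19 at 480 min, while at 600 min it read 6.40, 5.99 and 6.18. Every array at 360, 480 and 600 min lay above all arrays at 0 min. The arrays that stood apart at 120 and 240 min were the highest and the lowest of their groups.

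Polr3g rose by 0.52 at 360 min (SE 0.151, adjusted p = 0.0186), a 1.43-fold higher level, and by 0.43 at 480 min (adjusted p = 0.0422, and 0.0633 with the replicate block). Its difference of 0.32 at 600 min did not pass the test (adjusted p = 0.133), but did so without the 2 arrays that stood apart (adjusted p = 0.022). The call at 360 min was lost when replicate 1 of 0 min was left out, and likewise replicate 2 or replicate 3 of 360 min (adjusted p = 0.0607 to 0.0835). That at 480 min was lost when any array of 0 min, or replicate 1 or replicate 2 of 480 min, was left out (0.0584 to 0.153). In the 9 late arrays it ranged from 5.99 through a median of 6.31 to 6.44, against 5.54 through 5.91 to 6.66 in the 9 early ones, a difference of 0.36 (SE 0.087, adjusted p = 0.00232).

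Polr3gl read 5.90, 5.86 and 5.73 at 0 min, 5.93, 6.00 and 6.07 at 30 min, 5.96, 5.90 and 5.74 at 60 min, 6.01, 5.83 and 6.09 at 120 min, 5.84, 5.95 and 6.01 at 240 min, 5.57, 5.66 and 5.59 at 360 min, 5.55, 5.58 and 5.59 at 480 min, while at 600 min it read 5.62, 5.59 and 5.55. All 9 arrays from 360 min on lay below all 15 earlier ones. The fall at 600 min was 0.24 (SE 0.065, adjusted p = 0.00673). Late arrays were lower than early ones by 0.36 (SE 0.037, adjusted p = 1.42e-07), opposite in sign to the rise of Polr3g. The sizes were alike in this fit but varied with the arrays used. With any single array of these times left out, the difference was -0.38 to -0.34 for Polr3gl and 0.31 to 0.42 for Polr3g. The windows upstream of the pair shown above share none of the 4 motifs.

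The Pol I factors recruit the enzyme to the ribosomal RNA genes. Rrn3, which links Pol I to its promoter complex and is a target of growth signals, had values of 9.40, 9.32 and 9.46 at 600 min, against 9.70, 9.63 and 9.54 at 0 min. The groups did not overlap, and the fall of 0.23 (SE 0.067, adjusted p = 0.0133) was lost when either replicate 1 of 0 min (0.0738) or replicate 2 of 600 min (0.0724) was dropped. It was lowest at 360 min, with values of 9.26, 9.31 and 9.38 and a fall of 0.31 (adjusted p = 0.00227).

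Taf1a, a subunit of the promoter selectivity factor that Taf1a to Taf1d form with the TATA-binding protein, had values of 4.81, 4.83 and 4.87 at 600 min, against 5.36, 5.26 and 5.00 at 0 min. It fell by 0.37 (SE 0.113, adjusted p = 0.0175), a call lost without replicate 1 or 2 of 0 min (0.0966 and 0.064), and it is dim, above only 57.8% of the genes. Taf1b had values of 7.64, 7.72 and 7.90 at 600 min, against 7.62, 7.66 and 7.63 at 0 min, and a difference of 0.12 (adjusted p = 0.19). Taf1c had values of 6.04, 6.05 and 5.78 at 600 min, against 6.11, 6.07 and 6.07 at 0 min, and a difference of -0.12 (adjusted p = 0.24).

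Ubtf, the factor that keeps the ribosomal RNA genes open for Pol I, had values of 7.64, 7.52 and 7.71 at 600 min, against 7.89, 7.93 and 7.93 at 360 min and 7.74, 7.75 and 7.75 at 0 min. The 3 times were separated from one another, with 360 min highest. It fell by 0.30 at 600 min relative to 360 min (SE 0.060, adjusted p = 0.00499), while its differences from 0 min of 0.17 at 360 min (adjusted p = 0.0543) and -0.13 at 600 min (adjusted p = 0.143) did not pass the test.

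Taf1d was represented by 9 probe sets with different time courses, so its values depend on which is read. The brightest, used here, had values of 9.37, 9.12 and 9.46 at 120 min, 9.20, 9.35 and 9.20 at 240 min, with 9.24, 9.31 and 9.19 at 360 min, against 8.84, 9.09 and 8.98 at 0 min. Its rises were 0.35 at 120 min (adjusted p = 0.0401), 0.28 at 240 min (adjusted p = 0.0401) and 0.28 at 360 min (adjusted p = 0.0103), and at 600 min it read 8.96, 9.07 and 9.01, overlapping 0 min. With the replicate block the first and the second of these calls were lost (0.0954 and 0.0769), and without the 2 arrays that stood apart the one at 120 min was lost (0.183). Leaving out replicate 1 of 0 min lost all 3 (0.226, 0.206 and 0.0758). The call at 120 min was also lost when replicate 3 of 0 min, or replicate 1 or 3 of its own time, was left out (0.085 to 0.223), that at 240 min when replicate 3 of 0 min, or replicate 1 or 2 of its own time, was left out (0.0857 to 0.189), and that at 360 min without replicate 2 of its own time (0.0523).

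This probe set is annotated to Taf1d through 2 cDNA records and lists no RefSeq transcript. The probe set that lists the RefSeq transcripts had differences of 0.11 at 120 min (adjusted p = 0.682), -0.09 at 240 min (adjusted p = 0.745) and -0.24 at 600 min (adjusted p = 0.0562), all over the probe sets with 1 symbol. Between late and early arrays it was lower, by 0.28 (adjusted p = 0.000219). Of the remaining probe sets, 3 were called lower at 600 min, by 0.62 (adjusted p = 0.00172), 0.57 (adjusted p = 0.00571) and 0.31 (adjusted p = 0.0344, and 0.053 with the replicate block). The other 4 had equal values on every array and a difference of -0.10 (adjusted p = 0.56). With the mean of the 9 probe sets the calls for a rise were lost (adjusted p = 0.416, 0.238 and 0.348), and the difference at 600 min became -0.23 (adjusted p = 0.0494).

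**Figure D5:**
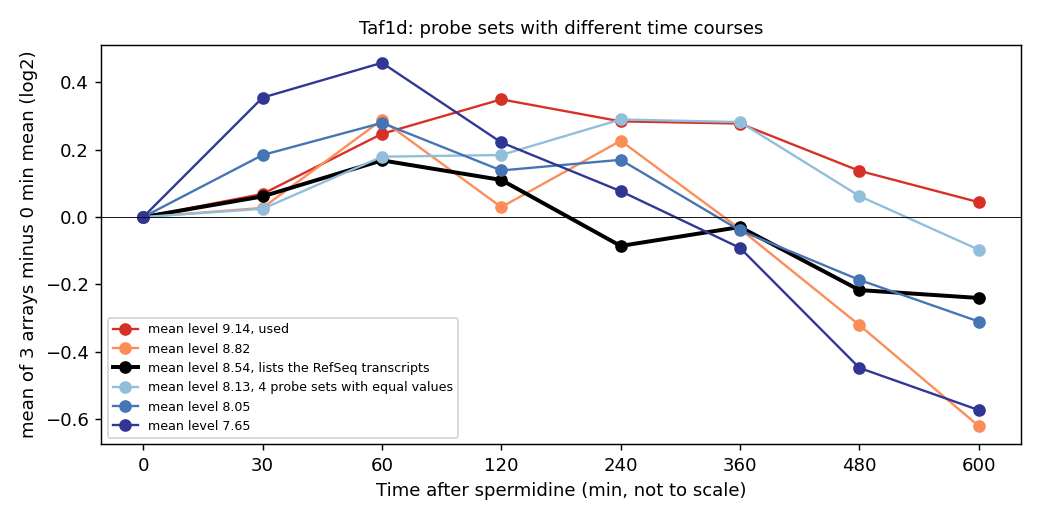
Mean of 3 arrays minus the 0 min mean (log2) for each Taf1d probe set with distinct values, against time after spermidine in min. At 600 min the brightest probe set is back near 0 (0.04) while the one that lists the RefSeq transcripts (black) is at -0.24 and another reaches -0.62.

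Genes that work with the polymerases were read from 6 lists. Their counts at 600 min stand beside 15.7% of all genes lower and 11.2% higher, with a median of 0.01 over all genes. Among genes above the median expression level, fitted alone, the shares were 32.2% lower and 20.6% higher. The lists are short and none was tested, so neither a difference from expressed genes at large nor its absence is shown. With the replicate block 1 fewer gene was lower in 3 lists, namely Cdk7 among the general factors (adjusted p = 0.0509), Cdc73 among the elongation genes (0.0535) and Slc7a6os among the assembly genes (0.0506). It also lost the rises of Smarca5 among the ribosomal DNA genes (0.0627) and of Rpap3. Except for Rpap3, these genes are named because of this loss, after their values were seen. Of 17 general factors of Pol II, which position it at promoters, 11 fell at 600 min and none was called higher by limma (1 had an unadjusted p under 0.05 for a rise), with a median of -0.37. Gtf2h3, a TFIIH subunit, averaged 6.63 ± 0.12 at 600 min and 7.49 ± 0.15 at 0 min (SD, n = 3 each; difference -0.86, adjusted p = 5.34e-05), and Gtf2f1, the large TFIIF subunit, 8.06 ± 0.05 and 8.78 ± 0.14 (difference -0.72, adjusted p = 2.16e-07). Gtf2a1, of TFIIA, and Ercc3, the TFIIH translocase, fell by 0.52 (adjusted p = 4.24e-05) and 0.51 (adjusted p = 1.92e-06).

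Of 15 Pol III factors 4 fell (26.7%) and 3 rose (20%), with a median of -0.07. Snapc4, of the complex that reads small nuclear RNA promoters, fell by 0.35 (adjusted p = 0.000566). Maf1, the repressor of Pol III, rose by 0.31 (adjusted p = 0.00279), with means of 9.45 ± 0.08 at 600 min and 9.14 ± 0.08 at 0 min, and Brf1, the TFIIIB subunit that binds Pol III, rose by 0.28 (adjusted p = 0.00393). Snapc1 had a difference of 0.25 that did not pass the test (adjusted p = 0.0606).

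Of 21 genes of Pol II pausing and elongation 6 fell (28.6%) and 5 rose (23.8%), with a median of 0.01. The elongation factors Supt6 and Supt5 fell by 0.84 (adjusted p = 5.5e-05) and 0.54 (adjusted p = 6.91e-05), and Ell by 0.34 (adjusted p = 0.00275). Hexim1, which holds the pause-release kinase inactive, rose by 0.84 (adjusted p = 0.0015), with means of 7.94 ± 0.05 at 600 min and 7.09 ± 0.07 at 0 min. Of 12 other genes of ribosomal DNA transcription 5 fell (41.7%) and 3 rose (25%), with a median of -0.15. Among them the RNA acetyltransferase Nat10 fell by 0.97 (adjusted p = 7.98e-07) and Pwp1 by 0.49 (adjusted p = 2.25e-06), topoisomerase Top2a rose by 0.74 (adjusted p = 2.22e-06), and Top1 had a difference of -0.15 (adjusted p = 0.0518).

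Of 13 genes for polymerase assembly and import 4 fell (30.8%) and 2 rose (15.4%), with a median of -0.11. Pih1d1 and Gpn1 fell by 0.48 (adjusted p = 5.09e-05) and 0.46 (adjusted p = 0.00255), the assembly chaperone partner Uri1 rose by 0.64 (adjusted p = 5.63e-05), and Rpap3 rose by 0.22 (adjusted p = 0.0326), a call lost with the replicate block (0.0513), without any array of 0 min (0.0596 to 0.103) or without replicate 3 of 600 min (0.197). Of 8 mitochondrial transcription genes 5 fell and none was called higher (also none at an unadjusted p under 0.05, by limma), with a median of -0.38. They included the mitochondrial polymerase Polrmt (-0.34, adjusted p = 0.00105), Tfb1m (-0.70, adjusted p = 0.000986), Tfb2m (-0.41, adjusted p = 0.000711) and Mterf3 (-0.43, adjusted p = 0.00085).

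Array values are shares of the labelled RNA, so a change common to nearly all transcripts would not be seen, and fewer cells with a transcript cannot be told apart from less of it per cell. Protein levels and polymerase activity were not measured.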

How the data were processed

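Total RNA (200 ng per sample) from NIH3T3 cells was labelled and hybridised to 24 Affymetrix MoGene 1.0 ST arrays, 3 per time. Per the submitters' processing notes, Partek and RMA were used. The deposited values are taken to be on a log2 scale, which is inferred from their range (2.94 to 13.63) and this method. They were used without further transformation. The 3 replicate numbers have equal means for every gene (median gap 5e-06), so an effect of replicate number was removed before deposit, by a step not given in the sources used here.

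Of 35399 probe sets, 21789 carried 1 symbol, 1621 several and 11989 none. The probe set with the highest mean stood for each of the 999 genes with several. A linear model with a mean for each time was fitted in limma (version 3.58.1, under R 4.3.3). Its two-sided moderated tests had 16 residual degrees of freedom and 3.48 from the prior. The median SE of a difference was 0.057, and precision is limited by how many arrays there are. The block fit had 14 residual degrees of freedom. The check of pairing found correlations between deviations of same-numbered arrays of -0.533 to 0.182 (84 pairs), which the removed effect pushes below 0, so it cannot show whether the numbers pair the samples. The script was tested on simulated data. Figures were drawn with matplotlib 3.10.9.

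Members, classes, lists and motifs were chosen with earlier results of these data known. Full values were set to be given for the largest subunits, Polr3g, Polr3gl, the Pol I factors, the 5 largest falls and rises at 600 min with all arrays beyond 0 min, and members called by 240 min, with up to 4 genes per list by the F-test. Other members were described to complete each complex. Of the listed genes, Gtf3c2, Zfp143, Gtf2h2, Supt4a, Ssrp1 and Mterf1a had no match.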

Additional observations from a re-analysis of the deposited data

How the results depend on the processing

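The fits repeated here were the replicate block, limma with an intensity trend, the fit without both arrays that stood apart, that fit with the block (chosen after seeing the data), only the arrays compared, only genes above the median level, the mean of a gene's probe sets, quantile normalization and each array left out in turn. No result called in the main fit changed direction. Taf1d at 600 min, not called in the main fit, became a called fall with the mean of its probe sets. The count of members lower at 600 min, and both counts between late and early arrays, stayed within 1.5 times under every one of them, and no member was called at 30 or 60 min in any. With the replicate block the counts of members were 0 higher and 0 lower at 120 min, 0 and 0 at 240 min, 0 higher at 480 and at 600 min, and 2 lower at 600 against 360 min. Without both arrays that stood apart they were 0 higher and 0 lower at 120 min and 7 lower at 240 min, and with the block as well 0, 0 and 4. Of all 19938 genes, the first of these fits called 2 higher and 45 lower at 120 min and 1171 lower at 240 min. The second called 0, 19 and 943. With the mean of probe sets they were 0 higher at 120 and 240 min and 1 higher at 360 min. Of all genes, 7, 70 and 1699 were higher at these times in that fit. With quantile normalization they were 0 lower at 240 min and 2 lower at 600 against 360 min, where 263 and 515 of all genes were lower. With only the arrays compared they were 0 higher and 0 lower at 120 and at 240 min, and 4, 2 and 0 higher at 360, 480 and 600 min. Counts over all genes were not taken with only the arrays compared or with single arrays left out. Member counts from those fits therefore cannot be set beside all genes. The cause of the changes between fits was not tested.

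With each array left out, the counts were 0 to 1 higher and 0 to 2 lower at 120 min, 0 to 1 higher and 0 to 4 lower at 240 min, 0 to 2 higher and 8 to 10 lower at 360 min, 0 to 1 higher and 13 to 15 lower at 480 min, and 0 to 1 higher and 15 to 18 lower at 600 min. The lowest of 8 at 360 min came without replicate 2 of 0 min and without replicate 1 of 360 min. At 600 against 360 min 2 to 4 were lower, with 2 left when replicate 2 of 360 min, replicate 3 of 360 min, or replicate 3 of 600 min was dropped. Between late and early arrays 2 to 3 were higher and 17 to 18 lower, and the F-test called 19 to 23. Over all genes, quantile normalization moved the share of calls that were higher to 75% against 100% at 30 min, 57.1% against 40% at 60 min, 22.5% against 9.57% at 120 min, 33.9% against 12% at 240 min and 54.5% against 42.5% at 600 against 360 min, and the median of the 33 genes at 600 min was -0.18 under it.

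Replicate numbers share a removed effect, and the block lost the calls of Polr1d and Polr2i at 360 min (adjusted p = 0.0626 and 0.0563) and of Polr2h at 480 min (0.0695) besides those given with the results. Dim genes such as Polr2k, Polr2i and Taf1a lie close to the background of the array, which limits what their values can show.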
